A study of Homo sapiens with 15 samples.

Results

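Long intergenic noncoding RNAs (lincRNAs) that were expressed in the human melanoma line MelJuSo were described across 5 cell lines derived from it. The genes were chosen by measured values: they are the genes that release 29 of the GENCODE annotation types as lincRNA and whose mean level over all 15 libraries was at least 1 TPM (a level scaled for transcript length and library size). This held for 328 of 7635 annotated lincRNAs, of which 2514 had a count in any library, and of 58721 annotated genes in all. Just inside the threshold lay RFX3-DT at 1.03 TPM, MANCR at 1.02 TPM and AL137027.1 at 1.0 TPM, and just outside it lay AC145207.5 at 0.999 TPM, AC005280.2 at 0.997 TPM and CD2BP2-DT at 0.987 TPM.

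A lincRNA is transcribed by RNA polymerase II, usually capped, spliced and polyadenylated like a messenger RNA, but carries no long open reading frame. Some act as RNA in the nucleus, as NEAT1 does in building paraspeckles. Others are mainly carriers of small RNAs cut from their introns or exons, or are transcribed from the same start region as a coding gene and follow its activity. In melanoma, MALAT1, NEAT1 and UCA1 have been studied mainly for growth and invasion of the tumour cells.

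Of the 5 lines, 4 carried dCas12a, a Cas12a that is directed by guides but does not cut DNA, joined to a 5xALFA tag and to the activation domain VP64. These 4 also carried a nanobody that binds the tag, joined to a second VP64 (the VP64 lines) or to p65, the activation domain of RELA (the p65 lines). In each of these pairs, 1 line held a cassette of 3 guides against CD4 and the other held none. The fifth line carried 5xALFA-dCas12a without VP64 and a nanobody without an activation domain, and held no guides; it is referred to as the line without an activation domain. It therefore differs from the VP64 and p65 lines without guides in both the dCas12a and the nanobody construct. Each line had 3 libraries, labelled replicates A, B and C, from cells grown to confluency. The labels do not say whether a line is 1 clone, or whether its replicates are separate cultures, so the p-values reflect the spread among these libraries alone, which may be technical.

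CD4, the targeted gene, was at 0.53 to 2.16 TPM without an activation domain, at 3.94 to 5.61 TPM in the VP64 and p65 lines without guides, and at 899.58 to 1035.45 TPM with guides. Of 10 melanocyte and melanoma markers, 9 were at 1 TPM or more, and MLANA was at a mean of 0.0893 TPM. The markers summed to 637.52 to 650.06 TPM without an activation domain and 1112.39 to 1184.52 TPM in the VP64 line with guides. Most of the sum came from MCAM and SOX10, at means of 591 and 165 TPM over all libraries. The pigment cell genes MITF, TYR, DCT and TYRP1 had means of 3.89 TPM or less, so the sum says little about them. Of 5 T cell markers other than CD4, CD3D, CD3G and CD2 were at 0 in all libraries, CD3E was at 0 to 0.06 TPM and TRAC at 0.51 to 2.71 TPM. Libraries held between 15643705 and 23072512 expected counts, the reads per gene that RSEM estimates. The 328 lincRNAs took 0.280% to 0.928% of them.

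Libraries stood apart in reads over ribosomal RNA. FP236383.3, FP671120.3 and FP236383.2 are short single-exon entries on chromosome 21 (FP236383.3 at 8437629 to 8438551) that lie wholly over RefSeq 18S and 45S ribosomal RNA genes, on the opposite strand. Their summed level was 14644 TPM in replicate B of the VP64 line without guides and 8836 TPM in replicate C of the p65 line with guides, against 933 to 4839 TPM in the other 13 libraries. They are near-identical copies of one another, so reads cannot be assigned between them with certainty, and without strand information reads from ribosomal RNA cannot be told apart from theirs. RMRP, annotated as the RNA of RNase MRP and also uncertain because 2 annotated genes carry its symbol, was highest in these same libraries, at 5.12 CPM (counts scaled to 1000000 per library, with the TMM factor) in the first and 3.70 CPM in the second, and at 0 to 1.13 CPM in the others. Whether ribosomal or small structured RNA carried over into these libraries was not tested. Calls of named lincRNAs that ended without either library are also given without it, as are some of the counts of lincRNAs called.

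The label "intergenic" held for most of the genes but not all. Of the 328, 69 (21%) overlapped the body of a protein-coding gene, 22 of them on its strand and 54 on the opposite strand, and 47 shared exonic bases with a coding exon. A further feature was a start shared with a coding gene: 86 (26.2%) started within 1 kb of a coding gene's start on the opposite strand. Another 16 started within 5 kb past the end of a coding gene on the same strand. Near-identical stretches, of at least 98% identity over 200 bases, were found elsewhere in the annotated transcripts for 45 genes, whose counts are therefore uncertain. A single exon block made up 81 of the genes, and the median exonic length was 1900 bases.

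Most of the genes were at low levels. Their median mean level was 2.56 TPM, at a median of 33.3 counts per library, and 66 had a mean below 10 counts. Only 49 reached 10 TPM and 9 reached 100 TPM. In 245 of the 328 the mean was 1 TPM or more in each of the 5 lines, and 297 had a TPM above 0 in all 15 libraries.

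**Figure D1:**
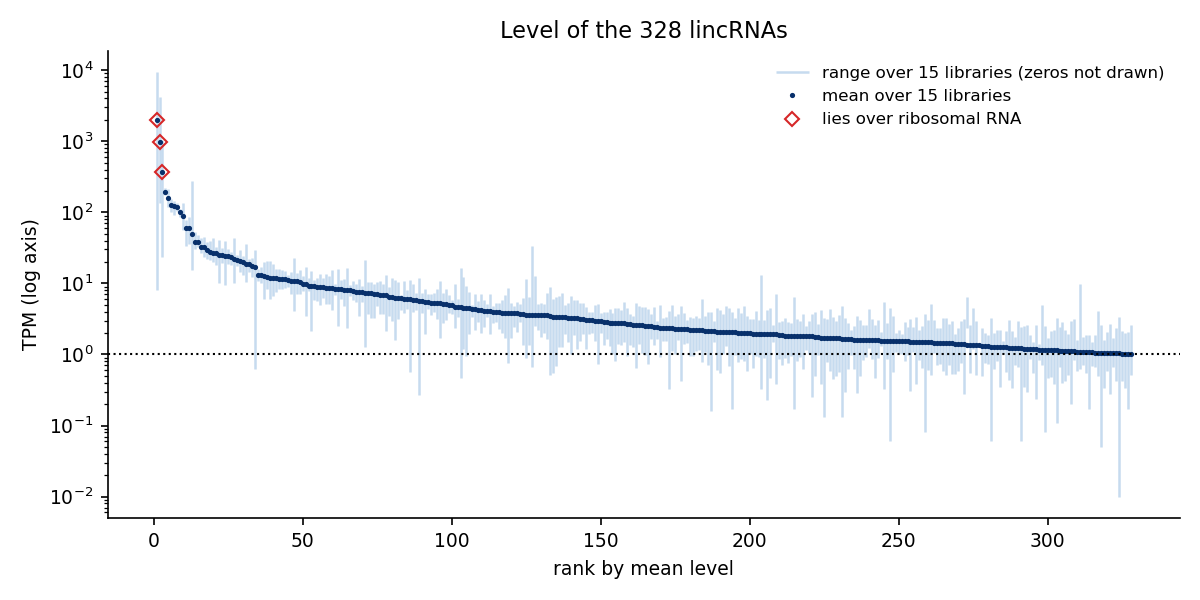
Level of each of the 328 lincRNAs in TPM on a log axis, ranked by mean over the 15 libraries; points are means, vertical lines the range over libraries and diamonds the 3 entries over ribosomal RNA. The 3 ribosomal entries lead with the widest ranges, 12 genes reach 50 TPM, and the median lies at 2.56 TPM.

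After the 3 ribosomal entries, the most abundant lincRNAs were the small nucleolar RNA hosts SNHG8 at 194 TPM and SNHG19 at 157 TPM. CYTOR, named for a role in the cytoskeleton, was at 126 TPM, and MIR4435-2HG, of which CYTOR is a near copy, was at 117 TPM. MALAT1, a nuclear speckle RNA, was at 123 TPM, NORAD, which binds Pumilio proteins, at 101 TPM and LINC00707 at 89.7 TPM. Of these 7, SNHG8 had the narrowest range of line means relative to its level, 188 to 200.2 TPM, and LINC00707 the widest, 59.04 to 135 TPM. The lincRNAs outside the ribosomal entries summed to 2460 to 2927 TPM in every library.

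Lines were compared gene by gene in edgeR, and a gene is said to have risen or fallen where its adjusted p was below 0.05 over all 14961 genes tested. Of the 328 lincRNAs, 285 passed the filter on low counts and were tested, and 43 were not. With guides against no guides in the VP64 lines, 27 lincRNAs rose and 30 fell, which is 9.47% and 10.5% of those tested, where 19.3% of all genes rose and 21.3% fell. In the p65 lines, 28 rose and 24 fell, against 18.7% and 20.2% of all genes. The shares were also set out by mean count. Of tested lincRNAs with a mean of 30 to 100 counts, 20.8% were called in the VP64 lines against 21.5% of all genes in that range, and of those with 100 to 300 counts 41.2% against 35.0%. Under 30 counts, which holds 113 of the 285, the shares were 4.42% and 10.1%, and over 300 counts, with 25 lincRNAs, they were 44% and 55.7%. In the p65 lines the shares were 5.31% and 8.56% under 30 counts and 20.8% and 19.5% at 30 to 100 counts. There they were 31.4% and 31.9% at 100 to 300 counts and 40% and 54.4% over 300 counts. The median size of the log2 fold change in the VP64 lines was 0.35 over the lincRNAs and 0.22 over all genes. It was also larger over the lincRNAs, 0.20 beside 0.087, between the p65 and VP64 lines without guides, where 0 lincRNAs rose and 3 fell. Over 300 counts lay 25 of the 285 lincRNAs and 8354 of the 14961 genes. Whether the lower counts of the lincRNAs enlarge these sizes was not tested.

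The deposited TPM values divide the counts by an effective length that RSEM gives for each gene in each library, so the units can move apart where that length differs between lines. The same genes were therefore also compared by limma on log2(TPM + 0.5), an alternative added after the data were seen and called "by TPM" from here on; the pseudocount makes its folds smaller for genes at low levels. By TPM, 21 lincRNAs rose and 23 fell with guides in the VP64 lines, and 19 rose and 20 fell in the p65 lines. Of the 57 called on counts in the VP64 lines, 38 passed by TPM in the same direction, and 1, PSMG3-AS1, named for this reason alone, had the other sign (0.72, SE 0.14, adjusted p = 0.000341 on counts; -0.31, adjusted p = 0.346 by TPM). Of the 52 in the p65 lines, 34 passed in the same direction and 1, CYTOR, had the other sign. Values by TPM are given below where a call ended, a sign turned or the log2 value moved by over 1.5 times.

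The lincRNAs that rose most with guides in the VP64 lines were OLMALINC, LINC00702, LINC01198 and INSIG1-DT. OLMALINC, first described in oligodendrocytes (ENSG00000235823.2, chromosome 10, 100373513 to 100454043 of hg38), was at 4.40, 4.40 and 4.34 CPM without guides and at 16.4, 17.9 and 15.2 CPM with them (log2 fold change 1.91, SE 0.14, adjusted p = 5.53e-10). The line without an activation domain, at 17.2, 18.8 and 19.5 CPM, overlapped the line with guides, while the VP64 line without guides was low. INSIG1-DT (ENSG00000273117.1, chromosome 7, 155295918 to 155297541), which starts back to back with INSIG1, showed the same order: 1.33, 1.89 and 1.88 CPM without guides, 4.77, 3.77 and 5.31 CPM with guides and 6.16, 7.0 and 7.0 CPM without an activation domain (log2 fold change 1.43, SE 0.23, adjusted p = 2.31e-05). LINC00702 (ENSG00000233117.2, chromosome 10, 4201141 to 4243912) went from 0.768, 0.614 and 0.965 to 1.68, 2.53 and 2.53 CPM (log2 fold change 1.52, SE 0.30, adjusted p = 0.000287), again with its highest values, 2.61, 3.43 and 3.26 CPM, in the line without an activation domain. In none of these 3 did the libraries with and without guides overlap.

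LINC01198 (ENSG00000231817.8, chromosome 13, 46455132 to 46515958) had another order. It was lowest without an activation domain, at 0.708, 0.628 and 0.609 CPM, stood at 1.48, 1.54 and 1.13 CPM in the VP64 line without guides and at 3.61, 4.13 and 3.79 CPM with guides (log2 fold change 1.47, SE 0.20, adjusted p = 3.11e-06). It has near-identical stretches in an olfactory receptor pseudogene, so its counts are uncertain. Smaller rises were found for LINC02732 (1.34, SE 0.32, adjusted p = 0.0019), AL035541.1 (1.17, SE 0.13, adjusted p = 1.63e-07), AL390066.1 (1.17, SE 0.28, adjusted p = 0.00157) and URB1-AS1 (1.02, SE 0.24, adjusted p = 0.00134). Of the 27 that rose, 9 did so at least 2-fold.

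**Figure D2:**
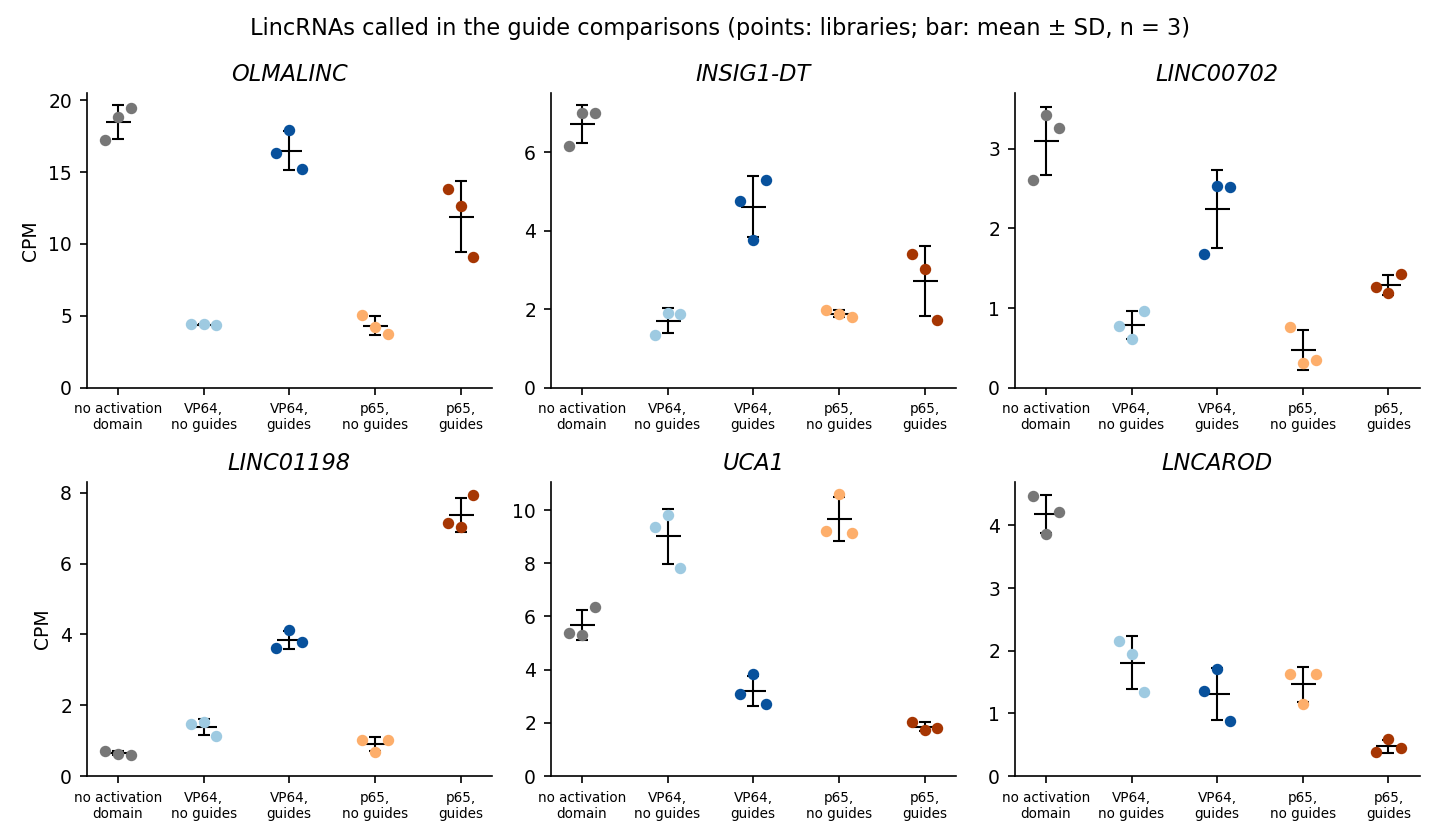
CPM of 6 lincRNAs called in a guide comparison, by line; points are libraries and bars the mean ± SD of 3. OLMALINC, INSIG1-DT and LINC00702 are high without an activation domain and low in both lines without guides, LINC01198 is highest in the p65 line with guides, and UCA1 and LNCAROD are lowest there.

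Among those that fell in the VP64 lines, UCA1, a lincRNA named for urothelial cancer (ENSG00000214049.7, chromosome 19, 15828206 to 15836326), went from 9.37, 9.83 and 7.83 CPM without guides to 3.09, 3.82 and 2.72 CPM with them (log2 fold change -1.48, SE 0.15, adjusted p = 6.48e-08). The line without an activation domain lay between, at 5.39, 5.31 and 6.35 CPM. SNHG15, a host of a small nucleolar RNA (ENSG00000232956.8, chromosome 7, 44983023 to 44986961), went from 39.2, 41.2 and 40.6 to 18, 19.3 and 22.5 CPM (log2 fold change -1.02, SE 0.074, adjusted p = 4.74e-10), while the line without an activation domain, at 38.7, 37.3 and 38.3 CPM, was near the line without guides. AC125807.2 fell by about as much (-0.98, SE 0.13, adjusted p = 3.6e-06), and AC090409.1 also fell (-1.24, SE 0.32, adjusted p = 0.00358).

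Several of the larger falls did not pass when a single library was left out. The ribosomal entry FP236383.3 ran from 586 to 4441 CPM among the 3 libraries without guides (log2 fold change -3.08, SE 0.86, adjusted p = 0.00641), and without replicate B of that line it did not pass (-1.91, adjusted p = 0.0777). FOXD1-AS1 (-1.06, SE 0.33, adjusted p = 0.0143) did not pass without the same library (-0.57, adjusted p = 0.195) or without replicate C with guides (-0.89, adjusted p = 0.0636). AL138478.1 (-1.25, SE 0.42, adjusted p = 0.0197) did not pass without replicate B lacking guides (-1.18, adjusted p = 0.0623) or without replicate A (-1.08, adjusted p = 0.0816) or C (-1.17, adjusted p = 0.0657) with guides. LINC01703 (-1.65, SE 0.50, adjusted p = 0.0118) did not pass without replicate B with guides (-1.33, adjusted p = 0.0766). Without replicate B lacking guides, the library high in ribosomal reads, 23 lincRNAs rose and 20 fell in the VP64 lines. The count that fell was lowest, at 19, without replicate B with guides.

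In the p65 lines, LINC01198 rose most, from 1.02, 0.676 and 1.01 CPM without guides to 7.15, 7.05 and 7.94 CPM with them (log2 fold change 3.02, SE 0.20, adjusted p = 9.6e-11), and no library of any other line reached these values. OLMALINC went from 5.04, 4.21 and 3.70 to 13.9, 12.7 and 9.12 CPM (log2 fold change 1.46, SE 0.14, adjusted p = 4.7e-08) and LINC00702 from 0.764, 0.312 and 0.352 to 1.27, 1.18 and 1.43 CPM (log2 fold change 1.45, SE 0.34, adjusted p = 0.00172). In CPM both stayed below the line without an activation domain in each library. By TPM the rise of LINC00702 did not pass (1.07, adjusted p = 0.156), with libraries of 0.660, 0.0600 and 0.0700 TPM and 1.76, 0.240 and 1.56 TPM that overlapped, and that of SNHG18 was smaller (0.75, adjusted p = 0.0314). LINC02732 (1.42, SE 0.38, adjusted p = 0.00442) and the small nucleolar RNA host SNHG18 (1.19, SE 0.25, adjusted p = 0.000501) also rose. INSIG1-DT was at 1.99, 1.87 and 1.80 CPM without guides and 3.41, 3.02 and 1.73 CPM with guides, groups that overlapped, and did not pass (0.52, SE 0.23, adjusted p = 0.0844).

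Weaker calls in the p65 lines were LNCTAM34A, transcribed antisense to the host of miR-34a (1.41, SE 0.55, adjusted p = 0.0466), LINC01320 (1.40, SE 0.46, adjusted p = 0.0191) and AC015712.1 (1.28, SE 0.50, adjusted p = 0.0466). LNCTAM34A did not pass without replicate A (1.48, adjusted p = 0.072) or B (1.18, adjusted p = 0.164) with guides or replicate C lacking guides (0.93, adjusted p = 0.206). LINC01320 did not pass without replicate B with guides (1.07, adjusted p = 0.122) or replicate C lacking them (1.12, adjusted p = 0.0934). AC015712.1 did not pass without replicate A (1.27, adjusted p = 0.0949) or B (1.13, adjusted p = 0.14) with guides, or replicate A (1.38, adjusted p = 0.0808) or B (0.86, adjusted p = 0.198) lacking guides. Their means were 10.4, 10.1 and 13.1 counts per library. The number that rose was 18 without replicate B with guides, and 29 without replicate C with guides, the p65 library high in ribosomal reads. By TPM, LNCTAM34A (0.71, adjusted p = 0.0691) and AC015712.1 (1.14, adjusted p = 0.0611) did not pass, and LINC01320 had a smaller value (0.86, adjusted p = 0.0207).

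UCA1 fell most in the p65 lines, from 9.21, 10.6 and 9.15 to 2.04, 1.72 and 1.82 CPM (log2 fold change -2.37, SE 0.16, adjusted p = 1.42e-10). LNCAROD, named as an activator of DKK1 (ENSG00000231131.7, chromosome 10, 52450874 to 52755409), followed, from 1.63, 1.14 and 1.63 to 0.385, 0.592 and 0.444 CPM (log2 fold change -1.63, SE 0.32, adjusted p = 0.000345), and was highest without an activation domain, at 4.47, 3.86 and 4.22 CPM. In the VP64 lines LNCAROD did not pass (-0.45, SE 0.27, adjusted p = 0.202), with overlapping libraries of 2.15, 1.95 and 1.34 CPM without and 1.35, 1.70 and 0.884 CPM with guides. Smaller falls were found for LINC00265 (-0.70, SE 0.19, adjusted p = 0.00571), which has near-identical copies, AC125807.2 (-0.67, SE 0.13, adjusted p = 0.000254), AC026401.3 (-0.65, SE 0.18, adjusted p = 0.00691) and MRPL20-DT (-0.65, SE 0.18, adjusted p = 0.00546), of which MRPL20-DT did not pass without replicate B lacking guides (-0.48, adjusted p = 0.0554). LINC01194 was at the threshold (-0.66, SE 0.26, adjusted p = 0.0468) and did not pass without any of 5 of the 6 libraries compared, at adjusted p = 0.0509 without replicate A lacking guides, 0.23 without replicate C lacking guides, and 0.103, 0.077 and 0.0948 without replicate A, B or C with guides. LINC01194 did not pass by TPM either (-0.24, adjusted p = 0.581).

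The 2 guide comparisons share no libraries. Of the lincRNAs that rose, 14 did so in both, which is 51.9% of those in the VP64 lines and 50% of those in the p65 lines. Of those that fell, 17 did so in both, 56.7% and 70.8% of the respective lists. Over all genes tested, the shared rises were 71.5% and 73.6% of the lists and the shared falls 74.1% and 78.2%. No lincRNA was called in opposite directions, as against 3 of the 2889 genes that rose and 10 of the 3185 that fell in the VP64 lines. Besides OLMALINC, LINC00702, LINC01198, LINC02732 and SNHG18, the shared rises held AL035541.1, AL390066.1 and BAIAP2-DT. Besides UCA1 and SNHG15, the shared falls held LINC00707, AC125807.2 and LINP1, a lincRNA linked to the joining of DNA breaks, and CYTOR, whose sign in the p65 lines was the other by TPM (0.15, adjusted p = 0.0839). Libraries did not overlap between groups for 53 of the 57 called lincRNAs in the VP64 lines and for 50 of the 52 in the p65 lines. Over all called genes the shares were 95.3% and 94.6%.

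**Figure D3:**
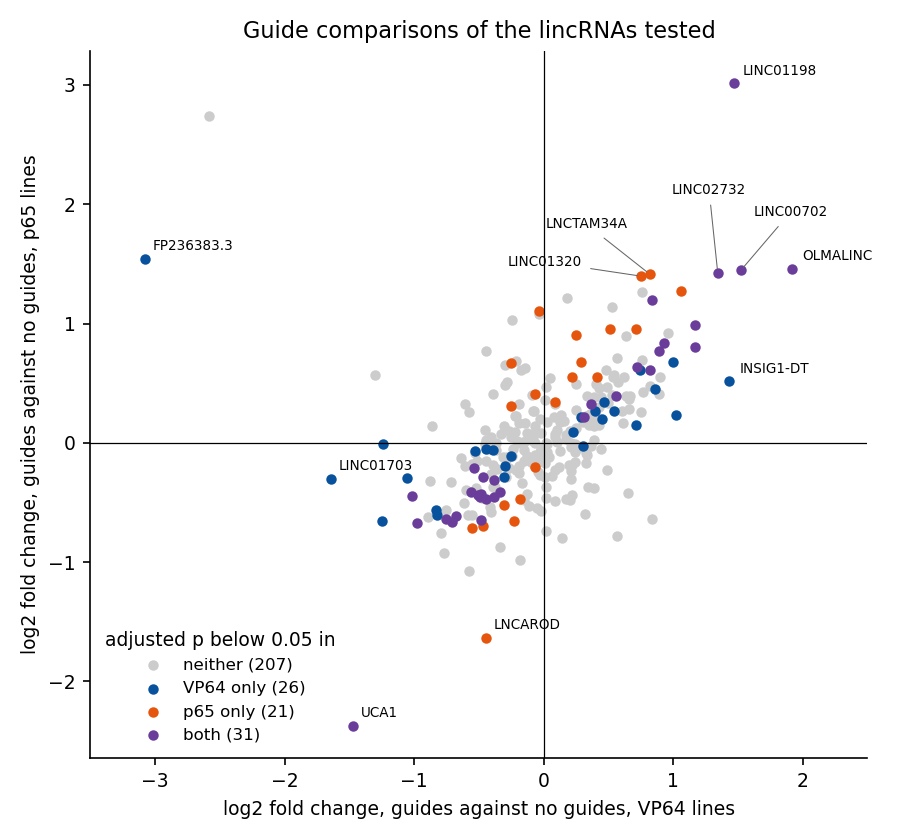
Log2 fold change of guides against no guides for the 285 tested lincRNAs, VP64 lines on the horizontal axis and p65 lines on the vertical; colour gives the lines in which adjusted p was below 0.05. The lincRNAs called in both lie in the upper right (14) and lower left (17), with LINC01198 farthest up and UCA1 farthest down.

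Lines with activation domains but no guides were next compared with the line without an activation domain. Each condition is a single line, so effects of the constructs cannot be told apart from other differences between the lines. With VP64, 36 lincRNAs rose and 49 fell, against 23.6% and 24.0% of all genes (47.6% in either direction). These are 12.6% and 17.2% of the lincRNAs tested. With p65, 26 rose and 54 fell, against 24.7% and 24.9% of all genes (49.7% in either direction), or 9.12% and 18.9% of the lincRNAs. The median log2 fold change was -0.086 (VP64) and -0.12 (p65) over the lincRNAs, beside -0.014 and -0.012 over all genes. The VP64 and p65 comparisons share the control libraries, and each also shares libraries with a guide comparison, so their values are set side by side only.

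SFTA1P, a pseudogene-derived lincRNA of the surfactant-associated family (ENSG00000225383.7, chromosome 10, 10784437 to 10794980), rose most. It was at 0.163, 0.241 and 0.174 CPM without an activation domain, 2.20, 2.71 and 1.34 CPM with VP64 (log2 fold change 3.39, SE 0.42, adjusted p = 7.72e-07) and 2.75, 2.18 and 1.94 CPM with p65 (log2 fold change 3.52, SE 0.41, adjusted p = 3.48e-07). With guides it stood at 0.966, 1.34 and 1.96 CPM (VP64) and 1.21, 1.18 and 2.07 CPM (p65), still above every library without an activation domain. AC002401.4 also rose with VP64 (1.5, SE 0.33, adjusted p = 0.000617) and with p65 (1.43, SE 0.33, adjusted p = 0.000911). MYOSLID, known from smooth muscle, rose with VP64 (1.52, SE 0.46, adjusted p = 0.00866) and did not pass with p65 (0.53, SE 0.50, adjusted p = 0.413), a difference that did not pass between the 2 lines either (-1.0, SE 0.43, adjusted p = 0.287).

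Other rises in these comparisons were less firm. FP236383.3 (2.70, SE 0.85, adjusted p = 0.0118) and FP671120.3 (2.75, SE 0.90, adjusted p = 0.0149), over ribosomal RNA, passed with VP64 but not without replicate B of the VP64 line (1.55, adjusted p = 0.137 and 1.07, adjusted p = 0.323). FP671120.3 also did not pass without replicate A of the line without an activation domain (2.46, adjusted p = 0.066). FP236241.1, which has 4 near-identical copies and is uncertain, passed with p65 (3.40, SE 1.0, adjusted p = 0.00698), with libraries of 0.163, 0.241 and 0.522 CPM without an activation domain and 3.41, 3.74 and 3.17 CPM with p65. By TPM it did not pass (0.16, adjusted p = 0.894), at 0.850, 0.600 and 1.38 TPM and 0.800, 1.29 and 1.19 TPM, which overlap. FP236383.3 (2.25, adjusted p = 0.239) and FP671120.3 (1.86, adjusted p = 0.235) did not pass by TPM with VP64. AL121906.2 (1.47, SE 0.57, adjusted p = 0.0363) did not pass without replicate A of the p65 line (1.08, adjusted p = 0.189) or without replicate B (1.19, adjusted p = 0.137) or C (1.46, adjusted p = 0.0911) of the line without an activation domain. LINC02981 (1.42, SE 0.43, adjusted p = 0.00842) did not pass without replicate B of the p65 line (1.06, adjusted p = 0.0677) or of the control line (1.08, adjusted p = 0.0518).

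The largest falls were shared in size between the 2 constructs for several lincRNAs. OLMALINC fell with VP64 (-2.08, SE 0.14, adjusted p = 5.64e-11) and with p65 (-2.11, SE 0.14, adjusted p = 3.73e-11), INSIG1-DT with VP64 (-1.98, SE 0.21, adjusted p = 1.2e-07) and with p65 (-1.83, SE 0.21, adjusted p = 2.34e-07), and LINC00702 with VP64 (-1.99, SE 0.29, adjusted p = 5.99e-06) and with p65 (-2.70, SE 0.31, adjusted p = 2.11e-07). LINC01119 went from 2.94, 2.75 and 2.91 CPM to 0.819, 0.563 and 0.750 CPM with VP64 (log2 fold change -2.0, SE 0.29, adjusted p = 6.66e-06) and 1.27, 1.09 and 0.968 CPM with p65 (log2 fold change -1.37, SE 0.27, adjusted p = 0.00023). With guides it was at 0.709, 0.671 and 1.45 CPM (VP64) and 0.660, 1.01 and 0.888 CPM (p65), and neither guide comparison passed (0.39, SE 0.34, adjusted p = 0.386 and -0.38, SE 0.31, adjusted p = 0.372). SH3TC2-DT, which starts back to back with SH3TC2, fell as well (VP64 -1.72, SE 0.31, adjusted p = 9.19e-05; p65 -1.62, SE 0.31, adjusted p = 0.000139). By TPM the fall of LINC00702 with VP64 did not pass (-1.36, adjusted p = 0.0613).

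MANCR, a lincRNA linked to mitosis (ENSG00000231298.6, chromosome 10, 4650185 to 4678154), fell with p65 and not with VP64. It was at 1.25, 1.55 and 1.52 CPM without an activation domain, 1.38, 0.717 and 0.965 CPM with VP64 (log2 fold change -0.50, SE 0.31, adjusted p = 0.205) and 0.204, 0.156 and 0.308 CPM with p65 (log2 fold change -2.64, SE 0.39, adjusted p = 8.27e-06). The p65 and VP64 lines differed directly, without guides (log2 fold change -2.14, SE 0.41, adjusted p = 0.0045) and with guides, where the libraries were 0.495, 0.474 and 0.542 CPM for p65 and 1.03, 1.55 and 1.83 CPM for VP64 (log2 fold change -1.53, SE 0.36, adjusted p = 0.00827). LINC00882 was listed at 0.102, 0 and 0.0880 CPM in the p65 line and passed against the control (-2.40, SE 0.78, adjusted p = 0.0136), but not without replicate B of the p65 line (-1.89, adjusted p = 0.0623) or of the control line (-2.05, adjusted p = 0.069). By TPM the values of MANCR were smaller and passed (-1.51, adjusted p = 3.44e-05 for p65 against no activation domain; -1.10, adjusted p = 0.0137 and -0.99, adjusted p = 0.0104 for p65 against VP64 without and with guides).

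Between the p65 and VP64 lines without guides, 0 lincRNAs were higher with p65 and 3 were lower, against 0.388% and 1.72% of all genes; 36 had an unadjusted p below 0.05, and DESeq2 called 0 and 2. Besides MANCR these were LINC02915, at 34.9, 38.8 and 37.1 CPM with p65 and 47.4, 49.2 and 46.9 CPM with VP64 (log2 fold change -0.37, SE 0.05, adjusted p = 7.7e-05), and AC092368.3, whose exons share sequence with RAB43 (-0.36, SE 0.094, adjusted p = 0.0462). The call of AC092368.3 ended without any 1 of 5 of the 6 libraries compared, with adjusted p between 0.0839 and 0.244 (0.244, 0.0855 and 0.0839 without VP64 replicate A, B or C, and 0.17 and 0.194 without p65 replicate A or B). With guides, 5 were higher with p65 and 13 lower, against 3.72% and 4.20% of all genes. By TPM the counts with guides were 4 and 8, and AC092368.3 did not pass without guides (-0.34, adjusted p = 0.132). Without replicate B of the VP64 line with guides they were 3 and 6, and without replicate C of the p65 line 3 and 6.

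With guides, LINC01198 was higher with p65 than with VP64 (0.94, SE 0.17, adjusted p = 0.000785), as were SNHG15 (0.47, SE 0.077, adjusted p = 0.000325) and CYTOR (0.30, SE 0.064, adjusted p = 0.00414). MIR4458HG (1.0, SE 0.29, adjusted p = 0.0362) did not pass without replicate B (1.10, adjusted p = 0.0745) or C (0.80, adjusted p = 0.139) of the VP64 line or B (0.91, adjusted p = 0.108) or C (0.92, adjusted p = 0.133) of the p65 line. LINC01694 (0.33, SE 0.083, adjusted p = 0.0148) did not pass without VP64 replicate A (0.27, adjusted p = 0.0812) or B (0.30, adjusted p = 0.0849) or p65 replicate C (0.32, adjusted p = 0.0602). Lower with p65 were LINC01505 (-0.95, SE 0.20, adjusted p = 0.00427), and, beyond MANCR, LNCAROD (-1.49, SE 0.34, adjusted p = 0.00705) and UCA1 (-0.80, SE 0.18, adjusted p = 0.00801), neither of which passed without replicate B of the VP64 line (LNCAROD -1.24, adjusted p = 0.064; UCA1 -0.64, adjusted p = 0.0804). INSIG1-DT was lower too (-0.77, SE 0.21, adjusted p = 0.0277), but not without VP64 replicate A (-0.74, adjusted p = 0.0679) or C (-0.66, adjusted p = 0.102) or p65 replicate C (-0.51, adjusted p = 0.174). By TPM, MIR4458HG (0.48, adjusted p = 0.33), LINC01694 (0.27, adjusted p = 0.22) and INSIG1-DT (-0.71, adjusted p = 0.0715) did not pass.

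A test of the difference between the guide comparisons of the p65 and VP64 lines called 2 lincRNAs with a higher value in the p65 lines and 0 with a lower one, against 0.769% and 0.187% of all genes; 24 had an unadjusted p below 0.05, and DESeq2 called 3 and 0. They were LINC01198 (log2 fold change 1.54, SE 0.29, adjusted p = 0.00705), which rose more in the p65 lines, and SNHG15 (log2 fold change 0.57, SE 0.10, adjusted p = 0.00501), which fell less there, from 41.1, 36.9 and 35.2 to 26.3, 28.1 and 28.5 CPM. Without replicate C of the VP64 line with guides the counts were 6 and 1. The differences for UCA1 (-0.89, SE 0.22, adjusted p = 0.0603), OLMALINC (-0.45, SE 0.20, adjusted p = 0.395) and LNCAROD (-1.18, SE 0.43, adjusted p = 0.24) did not pass. By TPM neither LINC01198 (1.11, adjusted p = 0.227) nor SNHG15 (0.54, adjusted p = 0.0822) passed, and the counts were 0 and 1, the 1 being UCA1.

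LincRNAs with known roles were taken from lists, chosen with earlier results of these data known, of which only members of the 328 are described. The direction of a list is therefore not independent evidence, and its counts stand beside the 19.3% of all genes that rose and 21.3% that fell with guides in the VP64 lines, and 18.7% and 20.2% in the p65 lines. Of the nuclear body RNAs, MALAT1 and NEAT1 were members. MALAT1 lay between 138 and 301 CPM in the VP64 line with guides, a spread that covers every other line, and was lower with VP64 than without an activation domain (-0.55, SE 0.20, adjusted p = 0.0297), a call that ended without any 1 of the 6 libraries compared, with adjusted p from 0.0567 (without VP64 replicate B) to 0.101 (without VP64 replicate C). By TPM it had the other sign and did not pass (0.28, adjusted p = 0.124), at 107, 96.8 and 111 TPM without an activation domain and 124, 119.6 and 139 TPM with VP64. Every library was thus higher in TPM. Its mean effective length was 3117 bases without an activation domain and 1802 bases with VP64. NEAT1, the paraspeckle scaffold, went from 63.5, 70 and 63 to 82.7, 91.4 and 74.8 CPM with guides in the p65 lines (log2 fold change 0.34, SE 0.12, adjusted p = 0.0269), a call that ended without replicate A (0.34, adjusted p = 0.0611) or B (0.27, adjusted p = 0.134) with guides or A (0.32, adjusted p = 0.0779) or C (0.32, adjusted p = 0.07) lacking them. It was lower with p65 than without an activation domain (-0.39, SE 0.12, adjusted p = 0.00929). By TPM the rise of NEAT1 with guides did not pass (0.33, adjusted p = 0.108).

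**Figure D4:**
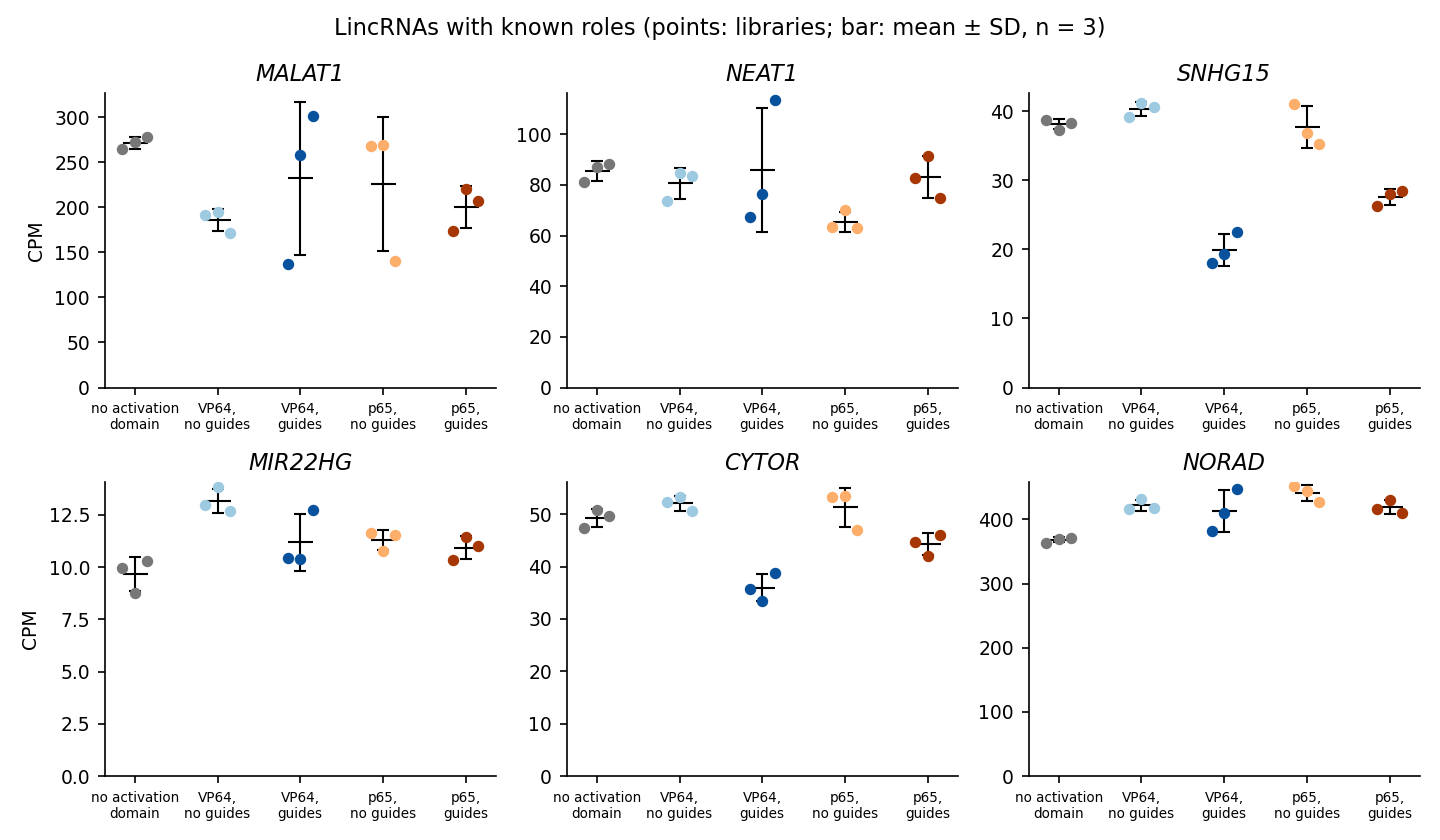
CPM of 6 lincRNAs with known roles, by line; points are libraries and bars the mean ± SD of 3. SNHG15 and CYTOR are lowest in the VP64 line with guides, MALAT1 has its widest spread there, and NORAD is lowest without an activation domain.

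Small nucleolar RNA hosts carry small nucleolar RNAs in their introns, which guide the modification of ribosomal RNA. Of 9 among the genes, 8 were tested, and with guides 1 rose and 1 fell in each pair of lines. SNHG18 rose in both, from 2.0, 2.0 and 1.13 to 3.48, 3.10 and 2.59 CPM in the VP64 lines (log2 fold change 0.83, SE 0.25, adjusted p = 0.00985; without replicate C lacking guides 0.63, adjusted p = 0.0581), and SNHG15 fell in both (p65 -0.45, SE 0.07, adjusted p = 2.36e-05). SNHG8, the most abundant, did not pass in either guide comparison (0.12, SE 0.085, adjusted p = 0.266 and 0.17, SE 0.084, adjusted p = 0.116), and neither did EPB41L4A-AS1 (0.09, SE 0.10, adjusted p = 0.521 and 0.08, SE 0.097, adjusted p = 0.574). Against no activation domain, 3 fell with each construct: SNHG4 (VP64 -0.72, SE 0.14, adjusted p = 0.000153; p65 -0.54, SE 0.13, adjusted p = 0.00173) and SNHG30 (VP64 -0.55, SE 0.15, adjusted p = 0.00328; p65 -0.43, SE 0.14, adjusted p = 0.0155) with both, SNHG19 with VP64 (-0.50, SE 0.13, adjusted p = 0.00357) and SNHG9 with p65 (-1.11, SE 0.41, adjusted p = 0.027). The libraries of SNHG19 overlapped between the VP64 line and the line without an activation domain. SNHG30 with p65 did not pass without replicate C of either line (-0.36, adjusted p = 0.0785 and -0.37, adjusted p = 0.0751). SNHG9, at a mean of 11.2 counts, did not pass without replicate C of the p65 line (-0.87, adjusted p = 0.132) or replicate A (-1.13, adjusted p = 0.0526), B (-1.05, adjusted p = 0.0758) or C (-1.13, adjusted p = 0.0574) of the control line. By TPM, SNHG18 in the VP64 lines (0.50, adjusted p = 0.138) and SNHG4 (-0.48, adjusted p = 0.0674) and SNHG30 (-0.36, adjusted p = 0.0546) with p65 did not pass.

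MicroRNA hosts are lincRNAs from which microRNA hairpins are cut. By position, 16 of the 328 held mature microRNAs of RefSeq, build GRCh38.p14. The mature forms below are a selection. They belong to hosts on the list of known microRNA hosts that passed a test, and to a listed host that shares a seed with one of them. Other hosts by position that passed a test, such as LINC-PINT and LINC01505, are not shown. Capitals mark the seed, bases 2 to 8, which pairs with target messages. The levels given are those of the hosts and not of the microRNAs, which were not measured.
hsa-miR-9-5p: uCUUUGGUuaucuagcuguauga
hsa-miR-210-3p: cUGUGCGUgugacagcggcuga
hsa-miR-22-3p: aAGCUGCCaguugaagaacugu
hsa-miR-137-3p: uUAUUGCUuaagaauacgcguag
hsa-miR-924: aGAGUCUUgugaugucuugc
hsa-miR-4435: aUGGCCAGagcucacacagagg
hsa-miR-4458: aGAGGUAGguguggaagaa
hsa-let-7a-5p: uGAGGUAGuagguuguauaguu
hsa-let-7b-5p: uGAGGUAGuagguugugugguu

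The last 3 share the seed GAGGUAG, with miR-4458 in MIR4458HG and let-7a and let-7b in MIRLET7BHG, and miR-4435 lies in both MIR4435-2HG and its near copy CYTOR. Of 9 listed hosts tested, 2 rose and 1 fell with guides in the VP64 lines, and 2 fell in the p65 lines. Of all hosts by position, 15 were tested. With guides, 2 of these rose and 3 fell in the VP64 lines, and 3 fell in the p65 lines, where 40.6% and 38.9% of all genes were called. LINC00461, the host of miR-9 (ENSG00000245526.10, chromosome 5, 88507546 to 88691041), went from 2.76, 2.25 and 3.32 CPM to 4.70, 5.11 and 5.31 CPM with guides in the VP64 lines (log2 fold change 0.86, SE 0.19, adjusted p = 0.000914). It was lower than in the line without an activation domain with p65 (-0.73, SE 0.19, adjusted p = 0.00322) and with VP64 (-0.49, SE 0.19, adjusted p = 0.0382). The latter did not pass without VP64 replicate A (-0.48, adjusted p = 0.0865) or B (-0.35, adjusted p = 0.188) or control replicate A (-0.53, adjusted p = 0.0532) or C (-0.36, adjusted p = 0.191). By TPM, LINC00461 did not pass with guides (0.61, adjusted p = 0.0522), with p65 (-0.34, adjusted p = 0.249) or with VP64 (-0.06, adjusted p = 0.855).

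MIR210HG, the host of the hypoxia-induced miR-210 (ENSG00000247095.2, chromosome 11, 565660 to 568457), was highest without an activation domain, at 2.12, 2.03 and 2.0 CPM, and at 0.665, 0.717 and 0.697 CPM with VP64 (log2 fold change -1.56, SE 0.28, adjusted p = 8.44e-05) and 0.764, 0.832 and 0.528 CPM with p65 (log2 fold change -1.54, SE 0.28, adjusted p = 7.89e-05). With guides it stood at 1.35, 1.55 and 1.26 CPM in the VP64 line, a rise (log2 fold change 1.0, SE 0.30, adjusted p = 0.00931), and at 0.825, 1.42 and 1.13 CPM in the p65 line, which did not pass (0.67, SE 0.30, adjusted p = 0.0802). This is the order of OLMALINC and INSIG1-DT. MIR4435-2HG fell slightly in the VP64 lines (-0.25, SE 0.051, adjusted p = 0.000395). Its near-identical stretches in CYTOR leave its counts uncertain. MIR22HG was higher with VP64 than without an activation domain (0.44, SE 0.098, adjusted p = 0.00074), and MIR4458HG lower (-0.70, SE 0.28, adjusted p = 0.043), a call that ended without VP64 replicate A (-0.74, adjusted p = 0.0689) or B (-0.50, adjusted p = 0.198) or control replicate A (-0.45, adjusted p = 0.243) or B (-0.76, adjusted p = 0.055). By TPM, MIR4435-2HG with guides (-0.06, adjusted p = 0.581) and MIR22HG with VP64 (0.45, adjusted p = 0.0713) did not pass, and the rise of MIR210HG was smaller (0.65, adjusted p = 0.0122).

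In the p65 lines with guides, MIR137HG fell (-0.71, SE 0.24, adjusted p = 0.0211), but not without replicate A with guides (-0.58, adjusted p = 0.101) or replicate B lacking them (-0.56, adjusted p = 0.111). MIR924HG fell too (-0.52, SE 0.19, adjusted p = 0.0312), but not without replicate B with guides (-0.41, adjusted p = 0.132) or any 1 of the libraries lacking guides (-0.52, adjusted p = 0.0669, -0.49, adjusted p = 0.081 and -0.52, adjusted p = 0.06 without replicate A, B and C). MIR222HG and MIRLET7BHG did not pass in any of the 4 comparisons, with adjusted p of 0.326 and 0.576 for guides in the VP64 lines. MIR137HG did not pass by TPM (-0.51, adjusted p = 0.0615).

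Of 7 lincRNAs listed for melanoma and other cancers, 6 were tested, and with guides 1 rose and 5 fell in the VP64 lines, and 1 rose and 4 fell in the p65 lines. LINC00707 (ENSG00000238266.2, chromosome 10, 6779549 to 6879450) fell stepwise: it was at 290.1, 293 and 296 CPM without an activation domain, at 195, 197 and 198 CPM (VP64) and 199.7, 212 and 209 CPM (p65) without guides, and at 124, 116 and 129 CPM (VP64) and 129, 125 and 151 CPM (p65) with guides. Each of these steps passed, at log2 fold changes of -0.57 and -0.50 for the constructs and -0.68 and -0.61 for the guides (largest SE 0.055, largest adjusted p = 7.73e-08), and the 5 lines fell into 3 levels that did not overlap. CYTOR went from 52.3, 53.4 and 50.6 to 35.8, 33.5 and 38.7 CPM with guides in the VP64 lines (log2 fold change -0.54, SE 0.063, adjusted p = 5.48e-07) and less in the p65 lines (-0.21, SE 0.061, adjusted p = 0.00888), where it did not pass without replicate B with guides (-0.18, adjusted p = 0.0533) or lacking them (-0.17, adjusted p = 0.065). The difference between the 2 did not pass (0.33, SE 0.088, adjusted p = 0.0835). By TPM the fall in the VP64 lines was smaller (-0.17, adjusted p = 0.0438), and in the p65 lines CYTOR was higher with guides in every library, at 122, 118 and 113 TPM without and 135, 129 and 126 TPM with them, which did not pass (0.15, adjusted p = 0.0839). Its mean effective length there was 537 bases without and 416 bases with guides. CYTOR has near-identical stretches in MIR4435-2HG, so its counts are uncertain.

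PVT1, the neighbour of MYC, fell in the VP64 lines (-0.39, SE 0.10, adjusted p = 0.00427) and did not pass in the p65 lines (-0.06, SE 0.10, adjusted p = 0.669). LINC01291 fell in both, in the VP64 lines (-0.38, SE 0.12, adjusted p = 0.016) not without replicate B with guides (-0.22, adjusted p = 0.156) or replicate A (-0.29, adjusted p = 0.106) or C (-0.36, adjusted p = 0.053) lacking them, and in the p65 lines (-0.31, SE 0.12, adjusted p = 0.0415) not without replicate A (-0.30, adjusted p = 0.105) or C (-0.26, adjusted p = 0.14) with guides or B (-0.25, adjusted p = 0.164) or C (-0.30, adjusted p = 0.0918) lacking them. LINC01116, which shares a stretch with 27 other genes and is uncertain, rose in both (VP64 0.37, SE 0.11, adjusted p = 0.00993; p65 0.32, SE 0.11, adjusted p = 0.0238), the latter not without replicate A (0.23, adjusted p = 0.148) or C (0.31, adjusted p = 0.0559) with guides or A lacking them (0.26, adjusted p = 0.105). UCA1, which fell with guides, was higher with VP64 (0.66, SE 0.13, adjusted p = 0.000338) and p65 (0.76, SE 0.13, adjusted p = 6.37e-05) than without an activation domain. LINC00520, at a mean of 5.53 counts, was not tested.

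Of 4 lincRNAs listed as targets of p53, 1 fell with guides in the VP64 lines and 2 rose in the p65 lines. LINC-PINT was the one that fell (-0.82, SE 0.30, adjusted p = 0.0323), with libraries that overlapped (2.10, 3.02 and 2.52 CPM without and 1.35, 0.826 and 2.21 CPM with guides). It did not pass without replicate A (-0.77, adjusted p = 0.0819) or B (-0.51, adjusted p = 0.206) with guides or B (-0.67, adjusted p = 0.132) or C (-0.82, adjusted p = 0.0644) lacking them. The 2 that rose were NEAT1 and LNCTAM34A, above. LNCTAM34A was lower with p65 than without an activation domain (-1.58, SE 0.53, adjusted p = 0.0176), though not without p65 replicate C (-1.07, adjusted p = 0.112) or control replicate B (-1.39, adjusted p = 0.0698). TP53TG1 did not pass (-0.08, SE 0.20, adjusted p = 0.765 and 0.26, SE 0.19, adjusted p = 0.304 for guides). By TPM, LINC-PINT did not pass (-0.30, adjusted p = 0.637), and the value of LNCTAM34A with p65 was smaller (-0.75, adjusted p = 0.0428).

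Of the lincRNAs listed for interferon and NF-kB responses, PSMB8-AS1 and MIR22HG were members, and neither passed with guides. PSMB8-AS1, beside an immunoproteasome gene, was at 0.973, 0.819 and 0.536 CPM and 1.29, 1.03 and 1.71 CPM without and with guides in the VP64 lines (log2 fold change 0.77, SE 0.33, adjusted p = 0.0716), and the groups did not overlap. It was at 1.27, 0.884 and 1.10 CPM and 1.43, 1.54 and 1.43 CPM in the p65 lines (log2 fold change 0.43, SE 0.31, adjusted p = 0.297). The X inactivation centre gave 3 members, of which JPX (-0.04, SE 0.095, adjusted p = 0.764; -0.16, SE 0.091, adjusted p = 0.186) and FTX (0.24, SE 0.21, adjusted p = 0.394; -0.08, SE 0.21, adjusted p = 0.812) did not pass with guides in the VP64 or p65 lines. The third is counted among the falls in both and is not described.

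Of 6 lincRNAs listed for genome stability and RNA metabolism, CYTOR alone passed with guides. NORAD (ENSG00000260032.1, chromosome 20, 36045622 to 36050960) was at 364, 369.8 and 371 CPM without an activation domain, and higher with VP64, at 416, 432 and 417 CPM (log2 fold change 0.20, SE 0.045, adjusted p = 0.000943), and with p65, at 452, 444 and 427 CPM (log2 fold change 0.26, SE 0.045, adjusted p = 4.82e-05). It has near-identical stretches in LINC02211, which is far less abundant. CRNDE was lower with VP64 (-0.73, SE 0.19, adjusted p = 0.00277) and p65 (-0.90, SE 0.19, adjusted p = 0.000416). EBLN3P, at 51.7 ± 0.248 CPM without an activation domain and 50.8 ± 4.43 CPM in the VP64 line with guides (SD, n = 3), and LINC00467 did not pass in any of the 4 comparisons on counts. By TPM, EBLN3P fell with guides in the p65 lines (-0.39, adjusted p = 0.0245). RMRP did not pass either (-2.59, SE 1.19, adjusted p = 0.0884 with guides in the VP64 lines).

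Coding neighbours were set beside the lincRNAs as a readout that the choice of members did not use. OLMALINC starts 26.4 kb from SCD, which encodes stearoyl-CoA desaturase, the enzyme that makes monounsaturated fatty acids. SCD was at 530.3 ± 8.31 CPM without an activation domain, 103 ± 2.39 CPM with VP64 and 430.0 ± 40.5 CPM with VP64 and guides (SD, n = 3 each). It thus fell with the construct (-2.36, SE 0.076, adjusted p = 6.46e-16) and rose with guides (2.06, SE 0.075, adjusted p = 1.42e-14), and did so too in the p65 lines (with the construct -2.43, SE 0.076, adjusted p = 2.79e-16; with guides 1.60, SE 0.075, adjusted p = 3.36e-13). INSIG1, which encodes a protein of the endoplasmic reticulum that restrains sterol synthesis and starts 0.235 kb from INSIG1-DT, had the same order, at 148 ± 7.60, 20.9 ± 0.962 and 68.2 ± 5.99 CPM (SD, n = 3 each). Its guide comparisons passed in the VP64 lines (1.71, SE 0.085, adjusted p = 2.15e-12) and in the p65 lines (1.09, SE 0.09, adjusted p = 3.43e-09). MEF2C, whose start is the nearest coding start to LINC00461 at 213 kb, rose with guides in the VP64 lines (0.82, SE 0.13, adjusted p = 1.94e-05), as LINC00461 did.

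In most pairs the lincRNA and the coding gene were not both called, and such pairs give no joint direction. Of 76 divergent pairs in which both genes were tested, 10 lincRNAs and 42 coding genes were called with guides in the VP64 lines, both in 5 pairs, in the same direction in 4 and the opposite in 1, where 40.6% of all genes were called. In the p65 lines, where 38.9% of all genes were called, both were called in 2 pairs, in the same direction. URB1-AS1 rose with guides in the VP64 lines while URB1, across the shared start region, fell (-0.46, SE 0.057, adjusted p = 9.41e-07). TRAM2-AS1 and TRAM2 both fell (TRAM2-AS1 -0.38, SE 0.13, adjusted p = 0.0196; TRAM2 -0.80, SE 0.045, adjusted p = 9.68e-12). Pearson's r across the 76 pairs was 0.36 in the VP64 lines and 0.13 in the p65 lines, and across 230 pairs of a lincRNA and the coding gene with the nearest start 0.34 and 0.19. Among these 230 pairs, both genes were called in 20 in the VP64 lines, in the same direction in 16. In the p65 lines both were called in 23, in the same direction in 21. These are descriptions across pairs, which share libraries, and reads near a shared start may be counted to either gene where strand is not used.

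**Figure D5:**
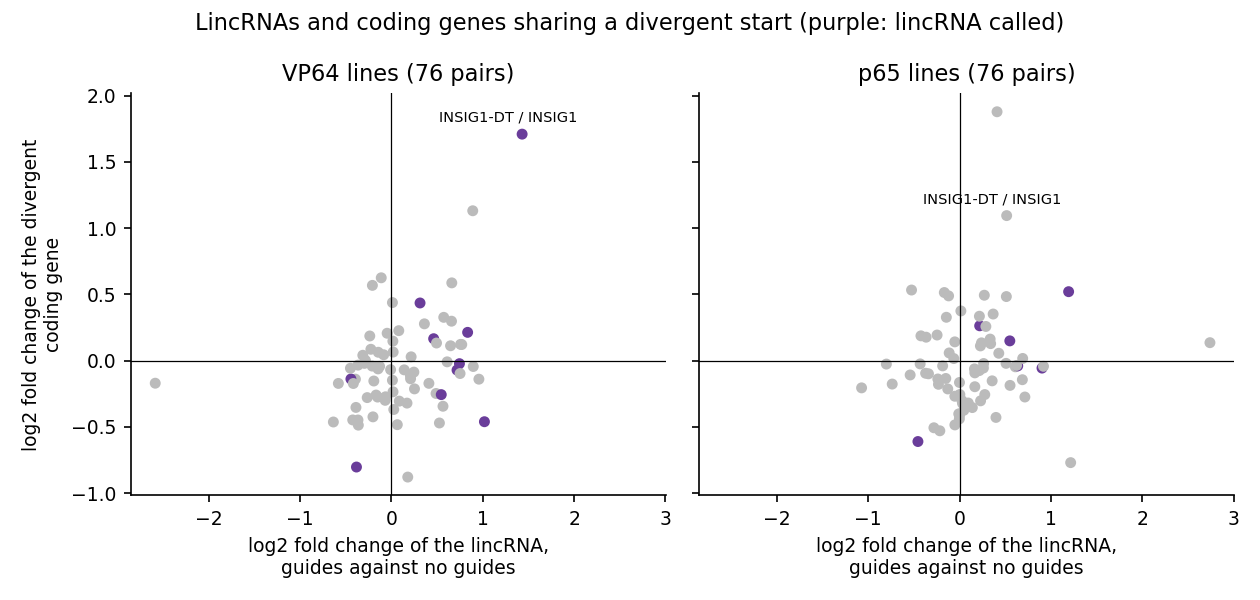
Log2 fold change, guides against no guides, of 76 coding genes (vertical) against that of the lincRNA starting within 1 kb on the opposite strand (horizontal), in the VP64 lines (left) and p65 lines (right); purple points are lincRNAs with adjusted p below 0.05. INSIG1-DT and INSIG1 stand apart at the upper right in the VP64 lines, and the other pairs scatter around 0 (r = 0.36 and 0.13).

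Promoter sequences are shown for 4 of the lincRNAs that were low in both lines without guides and higher in the VP64 line with guides. They are from RefSeq, build GRCh38.p14, 250 bases before to 50 after the start; RefSeq had an entry for 155 of the 328 genes by symbol. Capitals mark matches of the pattern TGANTCA, searched for AP-1, in OLMALINC and LINC00702. The pattern allows any base at N, which is A in OLMALINC and C in LINC00702. In INSIG1-DT and MIR210HG, capitals mark the hypoxia core ACGTG on either strand. The OLMALINC promoter is chr10:100373326-100373625 on the plus strand, and the others lie on the minus strand at chr10:4243863-4244162, chr7:155297609-155297908 and chr11:568408-568707.
OLMALINC: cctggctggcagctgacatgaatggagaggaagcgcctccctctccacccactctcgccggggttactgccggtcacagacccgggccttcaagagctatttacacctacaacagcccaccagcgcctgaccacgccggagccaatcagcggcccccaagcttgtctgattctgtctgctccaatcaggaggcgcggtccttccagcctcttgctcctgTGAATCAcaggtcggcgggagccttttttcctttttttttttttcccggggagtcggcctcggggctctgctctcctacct
LINC00702: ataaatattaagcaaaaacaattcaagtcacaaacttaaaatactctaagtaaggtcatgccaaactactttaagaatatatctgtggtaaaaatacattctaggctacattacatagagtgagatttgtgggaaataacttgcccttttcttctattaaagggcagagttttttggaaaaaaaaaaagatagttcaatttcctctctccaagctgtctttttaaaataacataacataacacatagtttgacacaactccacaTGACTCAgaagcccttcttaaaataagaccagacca
INSIG1-DT: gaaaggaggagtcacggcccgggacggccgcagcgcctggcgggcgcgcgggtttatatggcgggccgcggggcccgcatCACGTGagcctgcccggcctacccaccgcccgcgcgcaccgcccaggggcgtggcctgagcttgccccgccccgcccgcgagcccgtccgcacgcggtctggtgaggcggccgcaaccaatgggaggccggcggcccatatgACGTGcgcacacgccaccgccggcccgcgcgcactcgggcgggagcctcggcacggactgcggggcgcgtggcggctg
MIR210HG: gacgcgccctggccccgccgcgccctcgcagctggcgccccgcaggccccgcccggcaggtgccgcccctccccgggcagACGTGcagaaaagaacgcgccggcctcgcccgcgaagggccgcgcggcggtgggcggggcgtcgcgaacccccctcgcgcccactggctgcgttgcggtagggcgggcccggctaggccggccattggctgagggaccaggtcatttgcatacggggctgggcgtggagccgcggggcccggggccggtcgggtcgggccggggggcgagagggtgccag

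Among these 4, OLMALINC and LINC00702 held 1 match each of the AP-1 pattern. INSIG1-DT held 3 of the hypoxia core, some overlapping on opposite strands, and MIR210HG held 1. Over the 155 promoters, 11.0% held the AP-1 pattern with any base at N, and 25.2% the hypoxia core. The cyclic AMP response element TGACGTCA was in 2.58%, the sterol element TCACNCCAC in 1.29% and the NF-kB motif in 3.87%. Over all 35116 RefSeq promoters of this length the shares were 7.71%, 21.4%, 1.85%, 1.13% and 5.91%. Both strands were searched throughout. The median GC content was 65% for the 155 and 58.7% for all. A match is a run of letters, and binding was not measured.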

How the data were processed

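RNA sequencing of 15 libraries, 3 from each of 5 MelJuSo lines, was used. Reads were aligned with STAR to hg38 and quantified with RSEM, per the submitters' processing notes. The deposited expected counts are RSEM's estimated reads per gene, per the file headers. The deposited TPM values are, per the file headers, RSEM's abundances scaled by effective length, and effective lengths, in bases, were deposited beside them and served only to describe genes. The sources used here name no tool version or strand setting. Each table has 58813 entries, of which 92 spike-ins were left out.

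Expected counts were rounded and fitted by quasi-likelihood in edgeR 4.0.16 under R 4.3.3, with 1 coefficient per line over all 15 libraries, TMM factors of 0.983 to 1.01 and filterByExpr at a minimum count of 10 (14961 genes). In each of 7 comparisons the Benjamini-Hochberg adjustment ran over all genes tested, with a threshold of 0.05. The fit was tested on simulated data. CPM uses the TMM factors. Library totals of 15643705 to 23072512 counts limit the precision of the 66 lincRNAs with means under 10 counts. Replicate letters did not pair libraries: same-letter correlations of deviations were -0.073 to 0.064. No libraries were duplicates.

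Gene positions, overlaps and starts are from GENCODE release 29, matched by gene identifier. Near-identical copies were sought with blastn 2.17.0 among annotated transcripts. The members, role lists and motifs were chosen with earlier results of these data known. Named genes are the 10 with the highest mean TPM, up to 8 per direction by size of log2 fold change among called members in each guide comparison, up to 5 per direction in each other comparison, and members of the role lists; others (BAIAP2-DT, LINP1, PSMG3-AS1, TRAM2-AS1, RAB30-DT, OSER1-DT, EIF3J-DT) were named after their values were seen. An X-inactivation transcript is counted but not described. As alternatives, size factors of DESeq2 1.42.0 replaced TMM, its Wald test replaced edgeR, the count filter was dropped or set to a mean of 1 CPM, counts were left unrounded, the replicate letter entered as a block, the fit used only the libraries compared, each library was left out in turn, and the TPM threshold was changed. Added after the data were seen, limma 3.58.1 with a mean-variance trend was run on log2(TPM + 0.5) of the same 14961 genes.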

Additional observations from a re-analysis of the deposited data

Results flagged for a closer look

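The comparison of guides against no guides differed between the p65 and VP64 lines for LINC01198 and SNHG15, by the test of that difference in edgeR. Each condition is a single line, so an effect of the guides cannot be told apart from other differences between the lines. For LINC01198 the log2 fold change with guides was 1.54 higher in the p65 lines (adjusted p = 0.00705), with all 3 p65 libraries with guides above all 3 VP64 libraries with guides. For SNHG15 it was 0.57 higher, a smaller fall (adjusted p = 0.00501), again with no overlap between the libraries with guides. LINC01198 has near-identical stretches elsewhere, and the part of these in its value was not tested. By limma on log2(TPM + 0.5), an alternative added after the data were seen, neither difference passed (LINC01198 1.11, adjusted p = 0.227; SNHG15 0.54, adjusted p = 0.0822).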

How the results depend on the processing

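With a threshold of 2 TPM, 200 lincRNAs would have been described. Without the low-count filter, the counts between p65 and VP64 lines were 3 higher and 11 lower without guides and 12 higher with guides, and the difference of guide effects called 9 and 4. Fitting only the libraries compared left 6 lower with p65 when guides were present. Leaving out 1 library gave 22 to 29 that rose and 19 to 25 that fell with guides in the VP64 lines, 18 to 29 and 17 to 23 in the p65 lines, 3 to 7 and 6 to 12 for p65 against VP64 with guides, and 2 to 6 and 0 to 1 for the difference. Of 109 named values past the threshold, 35 did not pass without at least 1 library, 12 with DESeq2, 8 without the filter, 7 with only the libraries compared and 4 with the replicate block. On counts, 0 reversed. The 12 were AL138478.1, LINC01194, LINC01291, LNCTAM34A, MIR924HG, NEAT1, LINC00461, MALAT1, MIR4458HG, AL121906.2, SNHG9 and AC092368.3, and the cause was not tested. The replicate block, as a hint only since the letters did not pair the libraries (9 of 36 library and comparison combinations correlated best with their own letter), left 27 that rose and 26 that fell with guides in the VP64 lines. By limma on log2(TPM + 0.5), added after the data were seen, 25 of the 109 did not pass in the same direction, and a further 2 had the other sign, CYTOR with guides in the p65 lines (0.15, adjusted p = 0.0839) and MALAT1 with VP64 (0.28, adjusted p = 0.124). Another 3 named values passed by TPM and not on counts. CYTOR against no activation domain, which did not pass on counts (0.08, adjusted p = 0.298 with VP64; 0.05, adjusted p = 0.479 with p65), was lower by TPM (-0.24, adjusted p = 0.00612 and -0.31, adjusted p = 0.000866). By TPM 8 were lower with p65 than with VP64 in the presence of guides, and the difference of guide effects called 0 and 1. Depth left 43 of the 328 untested.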

Other observations

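Divergent pairs went in the same or in opposite directions when the lines without guides were set against the line without an activation domain. RAB30-DT fell with VP64 (-0.55, adjusted p = 0.0345) and with p65 (-0.54, adjusted p = 0.0353), while RAB30, which encodes a small GTPase of the Golgi, rose in both (1.10, SE 0.12, adjusted p = 2.18e-07 and 1.18, SE 0.12, adjusted p = 5.96e-08). OSER1-DT fell with both (-1.04, adjusted p = 0.00109 and -0.99, adjusted p = 0.00142), and OSER1 fell less (-0.25, SE 0.049, adjusted p = 0.000178 and -0.23, SE 0.048, adjusted p = 0.000469). EIF3J-DT rose with both (0.63, adjusted p = 0.000126 and 0.64, adjusted p = 9.86e-05), and EIF3J, a subunit of a translation initiation factor, rose with p65 (0.27, SE 0.067, adjusted p = 0.00177) but did not pass with VP64 (0.16, SE 0.068, adjusted p = 0.0513). Over the 76 pairs, both genes were called in 10 with VP64, in the same direction in 6, and in 11 with p65, in the same direction in 8. Of all genes, 47.6% and 49.7% were called. These 2 comparisons share the control libraries.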
